A study of Mus musculus with 9 samples.

Results

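Dendritic cells take up antigen, mature and present it to T cells. The 10 genes described here, chosen by symbol, mark their lineages and their maturation: Itgax, Zbtb46 and Flt3 for conventional dendritic cells as a whole, Cd209a for type 2 and monocyte-derived dendritic cells, Xcr1, Clec9a, Batf3 and Wdfy4 for type 1 dendritic cells, and Ccl22 and Fscn1 for mature ones. MHC class II genes were left out. All 10 are among the 23366 symbols of the deposited table, which gives gene expression in CD8+ T cells isolated from B16F10 tumours, a transplantable melanoma, of C57BL/6 mice. The mice were wild type (WT, 5 libraries) or IL27ra KO (4 libraries), lacking the receptor chain for interleukin 27, and each bulk library came from lysed cells whose RNA was copied by an adaptation of SMART-Seq 2. The labels give neither the age or sex of the mice nor a donor animal for each library, so the tests measure only the spread between these libraries. Values are FPKM, fragments scaled to transcript length and to sequencing depth, scaled between libraries by the trimmed mean method TMM.

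Type 1 conventional dendritic cells cross-present tumour antigen to CD8+ T cells and depend on the transcription factors IRF8 and BATF3. Type 2 cells present mainly to CD4+ T cells, and monocytes that enter a tumour can take on a dendritic phenotype of their own. On maturation, dendritic cells of either type change shape through the actin-bundling protein fascin and secrete chemokines such as CCL22. Several of these genes are not exclusive to dendritic cells, since macrophages and activated T cells can carry CD11c, the product of Itgax, and activated T cells can make BATF3.

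The IL27ra KO libraries had more RNA of Itgax and Cd209a, the only members to pass the test among the 4 whose overall mean reached 1 FPKM (limma, adjusted p under 0.05). Itgax averaged 8.14 ± 4.14 FPKM in IL27ra KO (n = 4, SD) against 1.47 ± 0.796 FPKM in WT (n = 5, SD). Cd209a lay between 2.33 and 19.9 FPKM in IL27ra KO against 0 to 3.56 FPKM in WT. Of 10374 genes tested, 4.24% changed in either direction and 3.13% were higher in IL27ra KO. The other 6 members lay below 1 FPKM on average, and among these Batf3 and Wdfy4 were higher in every IL27ra KO library than in any WT library. That held for 2.61% of 4605 genes with a mean under 1 FPKM that were above 0 in at least 3 libraries. Flt3 and Clec9a were near 0 FPKM in all 9 libraries, at most 0.43 and 0.18 FPKM. Zbtb46 and Xcr1 had values in WT and IL27ra KO that overlapped throughout.

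**Figure D1:**
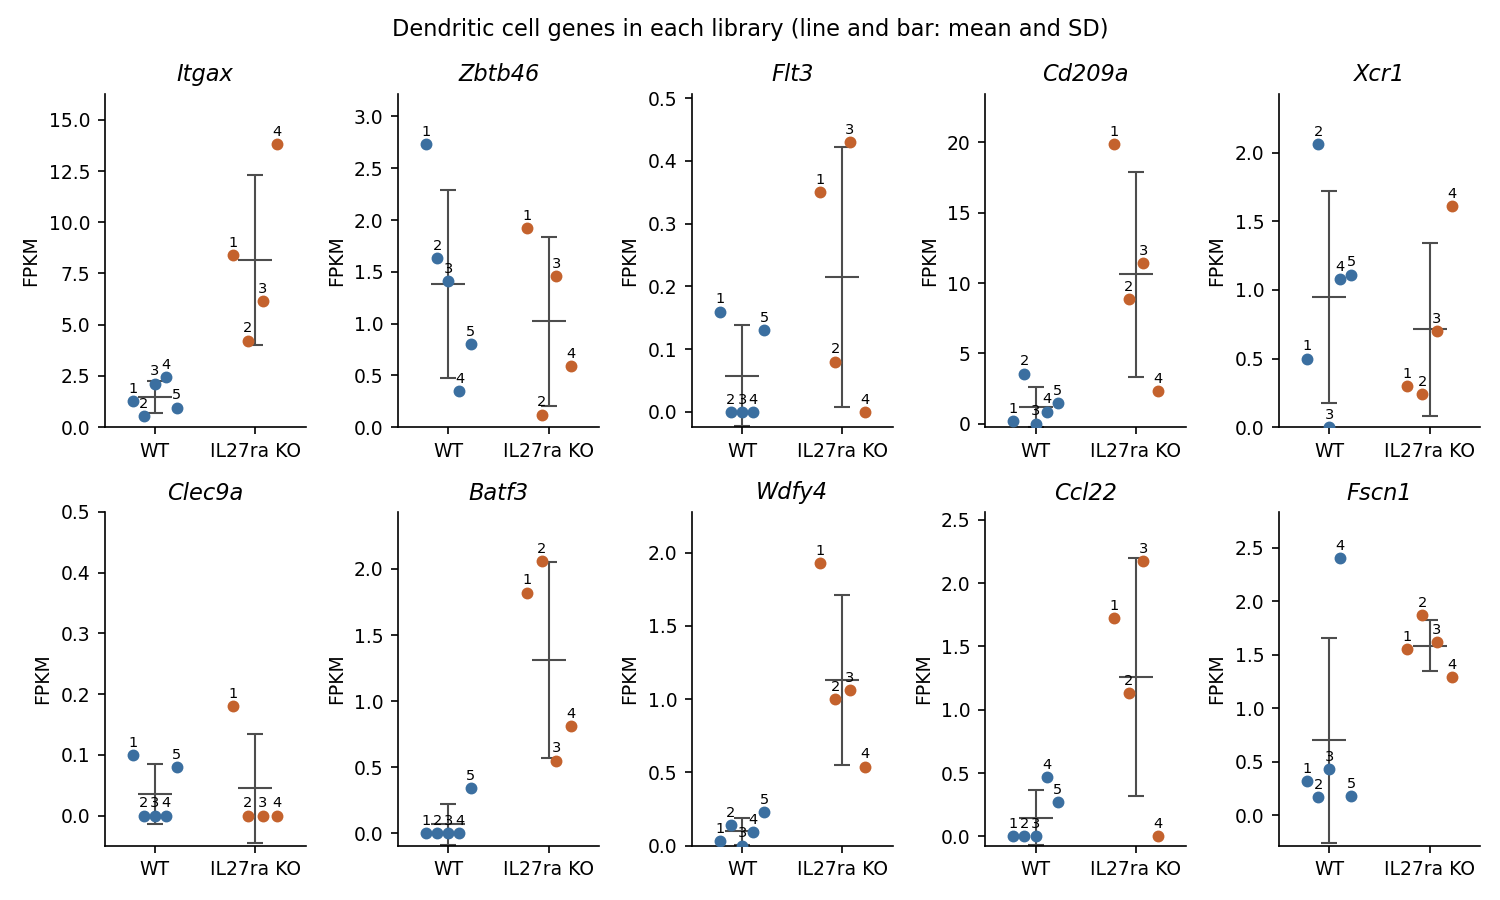
FPKM of each of the 10 genes (vertical axis, linear, its own scale per gene) in WT and IL27ra KO libraries. Points are libraries labelled by replicate number, lines and bars the mean and SD; the groups do not overlap for Itgax, Batf3 and Wdfy4.

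These genes were a small part of each library. Summed over the 10, they reached 3.97 to 8.11 FPKM per WT library and 19.6 to 38.1 FPKM per IL27ra KO library, and Itgax and Cd209a together made up 27.6% to 53.7% of that sum in WT and 66.8% to 76.9% in IL27ra KO. FPKM is a level per length, so the members can be ranked within a group: in IL27ra KO the means of Cd209a (10.6 FPKM) and Itgax (8.14 FPKM) stood above those of the other 8, which were at most 1.58 FPKM. In WT, Itgax (1.47), Zbtb46 (1.38) and Cd209a (1.22 FPKM) led, and these 3 did not differ beyond their spread.

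The deposited table gives no fragment numbers, but the spacing of low values in genes with a single transcript implied library sizes. These were 1740000 to 4030000 fragments per WT library and 2530000 to 3810000 per IL27ra KO library. They include the TMM scaling of each library, so they are not raw totals. Of those low values, 67.5% to 72.9% lay within 0.1 of a whole fragment, against 20% for evenly spread values at a spacing fixed beforehand. The spacing was chosen to fit these same values, so this contrast is not an independent check. The fragment numbers given below use the longest coding transcript in another annotation, so they are estimates. The T cell markers Cd3e and Cd8a were present in all libraries and lower in IL27ra KO. Cd3e had 172 to 298 FPKM over the WT and 61.3 to 175 FPKM over the IL27ra KO libraries (log2 difference -1.20; limma, adjusted p = 0.0317), and Cd8a 63.4 to 115 and 25.2 to 70.7 FPKM (-1.15, adjusted p = 0.0421). Of 15 CD8 T cell identity genes these 2 fell, 0 rose, and all 15 had differences below 0 (median -0.73, and -0.41 at the same total, where 0 fell). Without IL27ra KO replicate 4, 10 of the 15 fell, and without replicate 1, 2 or 3 of that group, or WT replicate 3 or 5, 0 did, with 1 in the remaining fits that removed a library. Cd4 was at most 0.45 FPKM. Il27ra had 4.09 to 7.8 FPKM in the 4 IL27ra KO libraries, and the library labelled WT replicate 2, at 5.14 FPKM, lay inside that range while the other 4 WT libraries had 14.4 to 25.7 FPKM. The log2 difference of Il27ra was -1.10 (limma, adjusted p = 0.0996) and, without that library, -1.42 (adjusted p = 0.0035). In the IL27ra KO libraries all 21 tested genes of a macrophage list were higher (median log2 change 2.83, against 0.023 over all genes tested). Some, such as Trem2 (mean 0.532 FPKM in WT), reached the mean of 1 FPKM only through the IL27ra KO libraries. With no filter on low genes 17 of 23 passed as higher. Without IL27ra KO replicate 1, 2 or 3, 15, 16 and 15 of the 21 did. The 23 genes of that list in the table summed to 99.7 to 540 FPKM per WT library and to 2160, 1713, 2059 and 626 FPKM in IL27ra KO replicates 1 to 4. Its remaining pair, below the mean of 1 FPKM, was Cd163 (at most 0.41 FPKM in WT, 1.1 to 2.21 FPKM in IL27ra KO) and Cd5l (0 in every WT library, 0.25 to 0.86 FPKM in IL27ra KO). In bulk libraries, fewer cells of a type and less RNA per cell cannot be told apart.

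Itgax encodes the integrin alpha X chain, CD11c, with which most conventional dendritic cells are sorted. WT replicates 1 to 5 had 1.27, 0.55, 2.13, 2.44 and 0.95 FPKM, and IL27ra KO replicates 1 to 4 had 8.41, 4.22, 6.14 and 13.8 FPKM. The groups did not overlap, which held in that direction for 4.26% of the genes tested. The log2 difference was 1.84 (SE 0.31), with an adjusted p of 0.0040 in limma and a two-sided exact permutation p of 0.0159, the smallest that 5 against 4 libraries allow. An estimated 4.99 to 22.8 fragments stood behind a WT value and 57.8 to 190 behind an IL27ra KO value. Each of 9 fits with 1 library removed kept the call (adjusted p at most 0.0181), including those without IL27ra KO replicate 4 (log2 difference 1.58) and without the library labelled WT replicate 2 (1.69). It was lost with the macrophage level as a covariate, at a larger difference and a larger SE (3.12, SE 0.58; limma, adjusted p = 0.0760). That level, the mean log2 level of the macrophage list, did not overlap between the groups (1.38 to 3.17 in WT, 3.82 to 5.51 in IL27ra KO). The fit therefore cannot separate it from genotype.

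The other alpha chains that share a beta chain with CD11c did not follow it as 1 group. Itgam, the CD11b chain of myeloid cells, rose from 1.58 ± 0.968 FPKM in the 5 WT to 15.5 ± 7.41 FPKM in the 4 IL27ra KO libraries (SD; adjusted p = 0.0017 in limma). Itgal, the LFA-1 chain that all T cells carry, had 47.8 ± 9.12 and 39.8 ± 25.7 FPKM (adjusted p = 0.610), and Itgad had at most 0.72 FPKM in any library. In IL27ra KO replicate 4, Itgax (13.8 FPKM) and Itgal (78.2 FPKM) had their highest values of all 9 libraries, and Itgam, at 5.39 FPKM, had its lowest value of that group. The genes whose profiles over the 9 libraries lay nearest to that of Itgax were Hk3, a hexokinase of myeloid cells, and H60b, a ligand of the receptor NKG2D. Their root mean square differences from Itgax were 0.41 and 0.46 on the log2 scale, beside a standard deviation of 1.10 for Itgax itself. Both were chosen for this likeness, which takes in their highest value in IL27ra KO replicate 4 (3.78 and 18.5 FPKM).

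Zbtb46, a zinc finger factor of committed conventional dendritic cells, did not pass the test. WT replicates 1 to 5 had 2.73, 1.63, 1.41, 0.35 and 0.8 FPKM, and IL27ra KO replicates 1 to 4 had 1.92, 0.12, 1.46 and 0.59 FPKM. The highest value was in a WT library and the lowest in an IL27ra KO library, with a log2 difference of -0.25 (SE 0.34; limma, adjusted p = 0.811). Its 2 nearest profiles were those of Ndrg1, a gene induced by low oxygen, and Hook2 (root mean square difference 0.22 and 0.26 log2 units). Flt3, the receptor for the growth factor that drives dendritic cell development, was listed at 0 in WT replicates 2, 3 and 4 and in IL27ra KO replicate 4, and ran up to 0.16 FPKM in the other WT and 0.43 FPKM in the other IL27ra KO libraries. That is an estimated 3.9 fragments over the 5 WT and 9.8 over the 4 IL27ra KO libraries, and no difference was detectable at this depth (two-sided exact permutation p = 0.238).

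Cd209a, 1 of the mouse relatives of human DC-SIGN, encodes a C-type lectin of type 2 and monocyte-derived dendritic cells. WT replicates 1 to 5 had 0.19, 3.56, 0, 0.86 and 1.47 FPKM, and IL27ra KO replicates 1 to 4 had 19.9, 8.87, 11.4 and 2.33 FPKM. IL27ra KO replicates 1 to 3 lay above all WT libraries, and replicate 4 lay below the library labelled WT replicate 2. The log2 difference was 2.34 (SE 0.50), with an adjusted p of 0.0169 in limma and a two-sided exact permutation p of 0.0317. An estimated 24.5 fragments in 5 WT libraries and 211 in 4 IL27ra KO libraries stood behind these values. Removing IL27ra KO replicate 1, 2 or 3 ended the call (adjusted p = 0.0673, 0.0523 and 0.0664), as did testing with no filter on low genes (adjusted p = 0.0588). It held without the library labelled WT replicate 2 (log2 difference 2.65, adjusted p = 0.0073) and without IL27ra KO replicate 4 (2.85, adjusted p = 0.0019). With the macrophage level as a covariate the difference was -0.95 (adjusted p = 0.446), in a fit that cannot separate that level from genotype. The nearest profiles were those of Pla2g7, a secreted phospholipase, and Lgmn, the lysosomal protease legumain, each within 0.28 log2 units of Cd209a.

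Cd209a belongs to a cluster of related lectin genes, and fragments that match more than 1 of them are divided by the counting program. Cd209d was listed at 0 in all 5 WT libraries and had 0.9, 3.05, 2.73 and 0.67 FPKM in IL27ra KO replicates 1 to 4, an estimated 21.1 fragments in all. Cd209e was also at 0 in all WT libraries and reached 0.67 FPKM in IL27ra KO, and Cd209b ran up to 0.53 FPKM. Cd209c behaved otherwise, at 5.54 ± 1.10 FPKM over the 5 WT libraries and 5.16 ± 1.47 FPKM over the 4 of IL27ra KO (SD; log2 difference -0.10, adjusted p = 0.884 in limma). Cd209f was at 0 in all libraries and Cd209g was above 0 in WT replicate 4 and IL27ra KO replicate 4 alone, at about 1 fragment each.

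**Figure D2:**
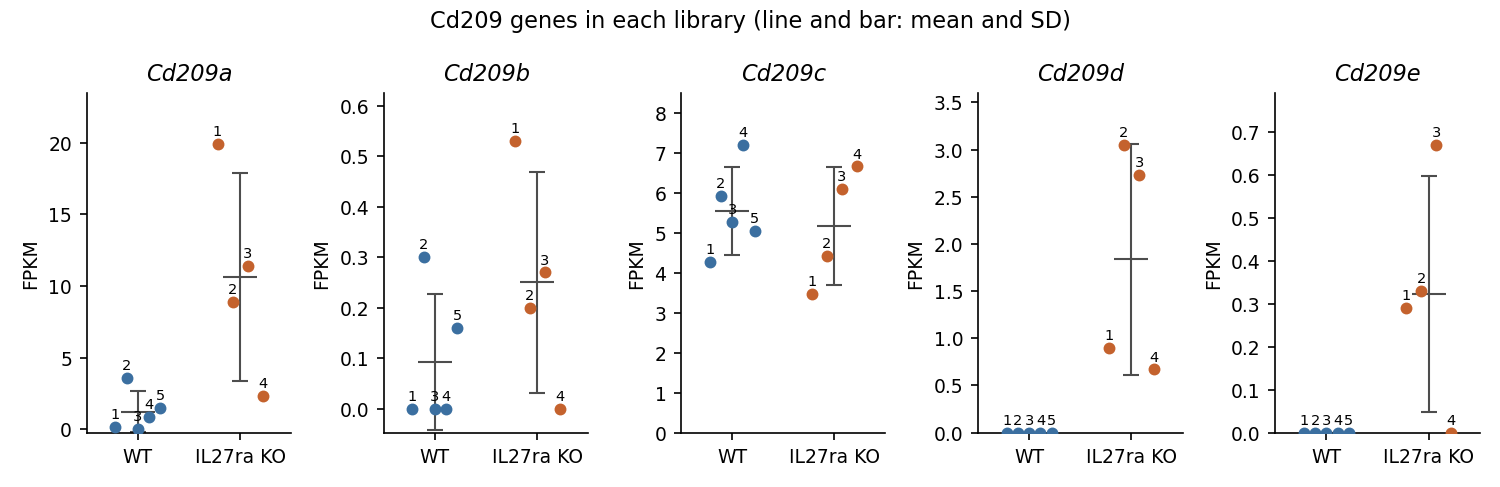
FPKM (vertical axis, linear, its own scale per gene) of Cd209a to Cd209e in each library, labelled by replicate number, with the mean and SD of WT and IL27ra KO. Cd209d and Cd209e are at 0 in every WT library, and the groups overlap for Cd209c, which lies between 3.47 and 7.2 FPKM.

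Of the 4 genes of type 1 dendritic cells, Batf3 and Wdfy4 were higher in IL27ra KO. Batf3, the factor that these cells need to develop, was at 0 in WT replicates 1 to 4, at 0.34 FPKM in WT replicate 5, and at 1.82, 2.06, 0.55 and 0.81 FPKM in IL27ra KO replicates 1 to 4. The groups did not overlap, but the values rest on an estimated 1.1 fragments in all of WT and 14.5 in all of IL27ra KO, with 1.11 in IL27ra KO replicate 3. Its difference was 1.07 on the log2 scale (two-sided exact permutation p = 0.0159; limma over all 18446 genes above 0, adjusted p = 0.0272). Wdfy4, which type 1 cells need for cross-presentation, had 0.03, 0.14, 0, 0.09 and 0.23 FPKM in WT replicates 1 to 5 and 1.93, 1, 1.06 and 0.54 FPKM in IL27ra KO replicates 1 to 4. It is a long transcript, so these low levels correspond to an estimated 15.8 fragments in WT and 155 in IL27ra KO. Its difference was 0.92 (two-sided exact permutation p = 0.0159; limma over the same 18446 genes, adjusted p = 0.0215), and 1.30% of those genes were called as higher. Groups that did not overlap in this direction made up 2.61% of the 4605 genes with a mean under 1 FPKM that were above 0 in at least 3 libraries, and 5.82% of them had an exact permutation p under 0.05.

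Xcr1, the receptor with which type 1 dendritic cells follow XCL1 made by T cells, had 0.5, 2.06, 0, 1.08 and 1.11 FPKM in WT replicates 1 to 5 and 0.3, 0.24, 0.7 and 1.61 FPKM in IL27ra KO replicates 1 to 4. The highest value was that of the library labelled WT replicate 2, and the groups overlapped over most of their range (log2 difference -0.16; two-sided exact permutation p = 0.714). Clec9a, the receptor for the debris of dead cells, was above 0 in 3 libraries, WT replicates 1 and 5 and IL27ra KO replicate 1, at 0.1, 0.08 and 0.18 FPKM. These are about 1, 1 and 2 fragments, and whether the gene differed was not detectable at this depth.

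The maturation genes were low and did not pass. Ccl22, a chemokine that draws CCR4-bearing cells such as regulatory T cells, was at 0 in WT replicates 1 to 3 and at 0.47 and 0.27 FPKM in WT replicates 4 and 5. IL27ra KO replicates 1 to 3 had 1.72, 1.13 and 2.17 FPKM, and replicate 4 was at 0. The groups therefore overlapped through 1 library (log2 difference 0.87; two-sided exact permutation p = 0.0952). Without that library, IL27ra KO replicate 4, the difference was 1.22. The two-sided exact permutation p was then 0.0357, the smallest that the remaining libraries allow, which the choice of that library fixed. Removing any other library gave p of 0.143 to 0.214 in the same test. Fscn1, which encodes fascin, had 0.32, 0.17, 0.43, 2.4 and 0.18 FPKM in WT replicates 1 to 5 and 1.55, 1.87, 1.62 and 1.29 FPKM in IL27ra KO replicates 1 to 4. Here too 1 library made the overlap, WT replicate 4, which was above all others. The log2 difference was 0.73 (SE 0.31; limma, adjusted p = 0.260), and without WT replicate 4 it was 1.02 and passed (adjusted p = 0.0187). That pass rests on dropping the library that made the overlap. Fscn1 entered the test at an overall mean of 1.09 FPKM, and without WT replicate 4 its mean lay below 1 FPKM. The filter was not applied again when a library was removed. Removing any other library left Fscn1 short of the threshold (limma, adjusted p of 0.236 to 0.514). WT replicate 4 also had the highest level of a melanoma gene list among all libraries (mean log2 level 5.98). With that level as a covariate the difference of Fscn1 was 0.49 (limma, adjusted p = 0.466). No cause of this was tested. The genes nearest to Fscn1, 5031439G07Rik and Scamp5, differed from its profile by 0.18 and 0.21 log2 units. They were chosen for this likeness, which takes in their high values in WT replicate 4 (8.05 and 3.87 FPKM).

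**Figure D3:**
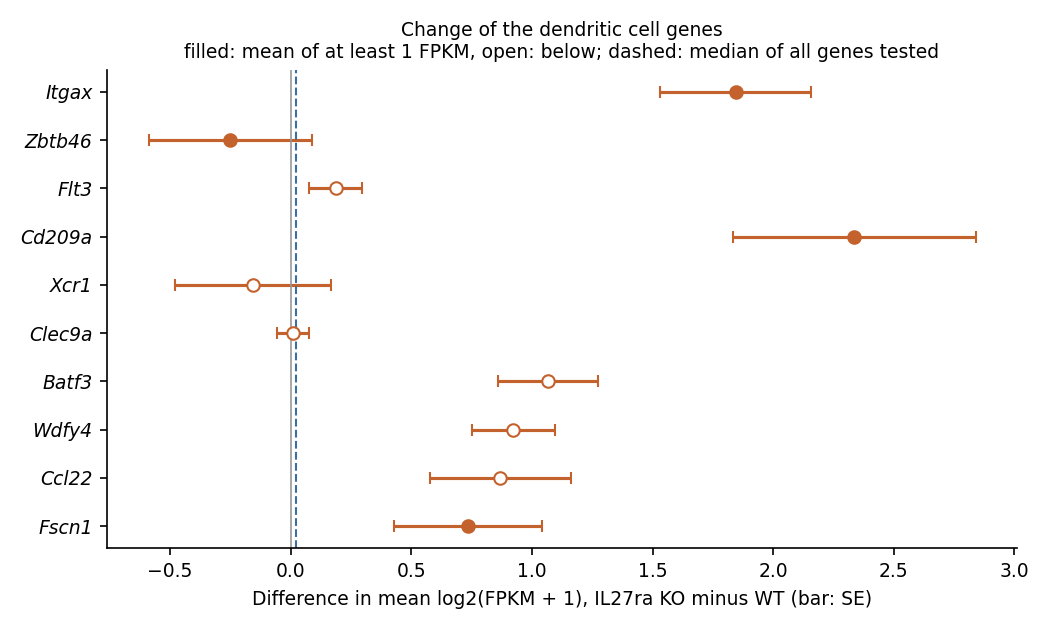
Difference in mean log2(FPKM + 1), IL27ra KO minus WT, for the 10 genes, with bars of 1 SE from limma; filled points had a mean of at least 1 FPKM and were fitted with the 10374 genes tested, open points were fitted with all 18446 genes above 0. Itgax (1.84) and Cd209a (2.34) stand farthest from the median of all genes tested, 0.023 (dashed line).

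The start regions of Itgax, Cd209a, Batf3 and Wdfy4 are shown because these are the 4 members that passed a test. They run from 250 bases before to 50 after the start of the gene, from RefSeq on GRCm38.p6, a later build than the mm9 named in the submitters' notes, and all 10 members had an entry. Capitals mark matches on either strand to any of 5 motifs: GAGGAA, a core bound by the myeloid factor PU.1; the ETS-IRF composite; the interferon response type; the AP-1 site TGANTCA, which BATF factors can also bind; and the NF-kB type GGGNNTTCC. The composite and the interferon response type share letters and can overlap.
Itgax, chr7:128129300-128129599 (+ strand): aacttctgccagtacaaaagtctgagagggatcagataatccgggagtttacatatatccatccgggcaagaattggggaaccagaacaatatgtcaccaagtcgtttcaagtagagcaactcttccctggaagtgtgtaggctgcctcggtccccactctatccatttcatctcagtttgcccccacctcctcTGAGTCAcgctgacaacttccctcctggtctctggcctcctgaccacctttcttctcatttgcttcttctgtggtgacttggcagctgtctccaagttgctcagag
Cd209a, chr8:3748935-3749234 (- strand): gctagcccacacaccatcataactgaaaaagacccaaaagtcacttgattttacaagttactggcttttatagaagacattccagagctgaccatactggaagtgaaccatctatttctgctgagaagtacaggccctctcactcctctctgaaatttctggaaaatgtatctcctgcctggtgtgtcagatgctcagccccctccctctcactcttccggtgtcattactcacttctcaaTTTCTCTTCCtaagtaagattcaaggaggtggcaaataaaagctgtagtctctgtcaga
Batf3, chr1:191098164-191098463 (+ strand): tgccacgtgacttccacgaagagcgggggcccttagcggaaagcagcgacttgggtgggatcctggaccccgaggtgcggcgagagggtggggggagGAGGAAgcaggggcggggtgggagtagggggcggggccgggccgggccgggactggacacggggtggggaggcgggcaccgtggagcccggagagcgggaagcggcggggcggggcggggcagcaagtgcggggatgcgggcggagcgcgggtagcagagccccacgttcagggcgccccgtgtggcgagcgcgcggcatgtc
Wdfy4, chr14:33185017-33185316 (- strand): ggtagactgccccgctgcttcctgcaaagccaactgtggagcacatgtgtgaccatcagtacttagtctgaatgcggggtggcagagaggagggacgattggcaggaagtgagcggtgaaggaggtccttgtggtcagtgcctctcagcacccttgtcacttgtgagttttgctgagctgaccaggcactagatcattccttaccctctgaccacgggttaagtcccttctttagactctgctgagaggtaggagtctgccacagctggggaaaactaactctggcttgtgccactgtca
No motif was common to the 4 windows. That of Itgax had 1 AP-1 match, starting 56 bases before the start of the gene, that of Cd209a 1 composite match across its start, and that of Batf3 1 PU.1-type core. The window of Wdfy4 had no match to any of the 5. Among all 10 members, Zbtb46, which did not pass the test, also had an AP-1 match. Of 32851 promoter windows of this length, 7.81% held the AP-1 motif, 2.71% the composite, 28.3% the PU.1-type core, 3.44% the interferon response type and 5.82% the NF-kB type. The members' counts were 2, 1, 1, 0 and 0 of 10, and a match describes letters only, not binding.

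Wider lists of dendritic cell genes gave different counts for the different subsets, beside 3.13% of all 10374 genes tested that were called higher in IL27ra KO. These lists include the members, so Itgax and Cd209a are counted in them again. The filter takes the mean over all 9 libraries, so a gene low in WT can enter through its IL27ra KO values, which favours rises. Among type 2 and monocyte-derived genes, 12 of 17 tested rose and 0 fell, with a median log2 change of 1.62. Itgam, Ccr2, the chemokine receptor of inflammatory monocytes, Sirpa, an inhibitory receptor of myeloid cells, and Fcgr1, the high-affinity Fc receptor, had the smallest p. Fcgr1 is on the macrophage list too. Ccr2 went from 8.44 ± 4.44 to 37.9 ± 11.9 FPKM, Sirpa from 4.38 ± 1.77 to 23.4 ± 11.6 FPKM and Fcgr1 from 1.00 ± 0.672 to 10.7 ± 7.16 FPKM. Here and below, such pairs are the mean ± SD of the 5 WT and then of the 4 IL27ra KO libraries, and adjusted p is from limma, at most 0.0040 for these 3. Most of these are also made by monocytes and macrophages, and 6 of the 17 passed without IL27ra KO replicate 1, 2 or 3, and 7 of 21 with no filter on low genes. Ly6c2 and S100a4, the list's most abundant members, did not pass (log2 differences 0.49 and -0.40, adjusted p = 0.445 and 0.742).

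Among the genes of type 1 cells, 3 of 11 tested rose and 1 fell, with a median of 0.49. With no filter on low genes, 4 of 21 rose and 0 fell (median 0.22). The members Batf3 and Wdfy4 were among these 4, and Xcr1 and Clec9a were not. Cd36, a scavenger receptor, went from 0.922 ± 0.757 to 7.47 ± 3.78 FPKM, Naaa, a lysosomal amidase, from 1.96 ± 1.02 to 9.64 ± 4.30 FPKM, and Cd24a from 0.646 ± 0.626 to 4.06 ± 2.25 FPKM (adjusted p at most 0.0177). Whether type 1 cells or other myeloid cells carried this RNA was not tested. Cd24a did not pass once IL27ra KO replicate 2 or 3 was removed (adjusted p up to 0.0860). Irf8, the defining factor of the type 1 lineage, which B cells and activated T cells also make, went the other way. It was at 18.4, 39.9, 8.28, 6.18 and 20.7 FPKM in WT replicates 1 to 5 and 4.49, 3.52, 7.37 and 2.14 FPKM in IL27ra KO replicates 1 to 4 (log2 difference -1.69, SE 0.44; adjusted p = 0.0468), and it missed the threshold in 7 of 9 fits with 1 library removed (adjusted p up to 0.134). It did not pass on scaling to the same total (adjusted p = 0.0757) or to CD8 T cell identity genes (0.0877). Of the list's 22 symbols, 21 were in the table and 11 reached the mean of 1 FPKM.

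Of the 18 tested genes of the conventional lineage, 5 rose and 1, Irf8, fell, with a median of 0.016. Csf2ra and Csf2rb, the chains of the receptor for the growth factor GM-CSF, went from 1.70 ± 0.795 to 11.8 ± 5.15 FPKM and from 1.14 ± 0.534 to 9.23 ± 4.79 FPKM (adjusted p = 0.0012 and 0.0029). Sfpi1, the table's symbol for the gene of PU.1, was at 0, 3.63, 0, 0.64 and 2.55 FPKM in WT and at 19.4, 12.5, 20.4 and 4.75 FPKM in IL27ra KO (adjusted p = 0.0050). Whether dendritic cells or other myeloid cells carried the RNA of Csf2ra, Csf2rb and Sfpi1 was not tested. Id2, a factor of dendritic and T cells, and Ikzf1, the most abundant members, did not pass (log2 differences -0.59 and -0.003, adjusted p = 0.526 and 0.999).

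Of 28 tested maturation genes, 1 rose and 3 fell, with a median of -0.078, which was 0.21 at the same total and 0.58 on the CD8 T cell scaling, where the medians of all genes were 0.29 and 0.63. Those that fell were Tnfsf4, the ligand of OX40, from 5.81 ± 3.18 to 0.518 ± 0.520 FPKM, Cd70, the ligand of CD27, from 2.46 ± 0.831 to 0.335 ± 0.278 FPKM, and Samsn1, a signalling adaptor of lymphocytes, from 26.2 ± 10.8 to 8.85 ± 2.78 FPKM (adjusted p at most 0.0140). Activated T cells can make each of these. Samsn1 did not pass once IL27ra KO replicate 1 was removed (adjusted p = 0.0594), nor on those scalings (0.0532 and 0.0803). Anxa3, a lipid-binding annexin, rose from 1.19 ± 0.793 to 4.98 ± 1.49 FPKM (adjusted p = 0.0086). Ccr7, the receptor that takes mature dendritic cells and naive T cells to lymph nodes, had 91.0 ± 22.7 and 94.6 ± 26.8 FPKM (adjusted p = 0.961), and Cd63 differed by 0.66 log2 units (adjusted p = 0.187). Of this list, 5 genes rose and 3 fell without IL27ra KO replicate 4, and 8 rose and 2 fell on the CD8 T cell scaling.

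For plasmacytoid dendritic cells, 4 of 11 tested genes rose and 0 fell (median 0.29): Pld4, Lair1, Irf7 and Tlr9, all of which macrophages can also make. With no filter on low genes, 3 of 15 rose and 0 fell (median 0.11). Siglech, which defines these cells, was at 0 in 8 of 9 libraries. Without IL27ra KO replicate 1 or 3, 2 of the 11 passed, with Irf7 among those lost (adjusted p up to 0.0626), and Tlr9 missed the threshold in 8 of 9 fits with 1 library removed (adjusted p up to 0.161). MHC class II genes were higher for 7 of 10 tested (median 2.29), with Cd74 at 9.13 to 165 FPKM over the WT and 148 to 732 FPKM over the IL27ra KO libraries. Only 1 or 2 of the 10 passed without IL27ra KO replicate 1, 2 or 3, and 1 with no filter. Of the B cell list 1 gene of 10 had a mean of 1 FPKM, and Ms4a1 was at 0 throughout. Genes of neutrophils (2 tested), B cells (1 tested) and NK cells (5 tested) passed for none but Tyrobp, which is on the macrophage list too.

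**Figure D4:**
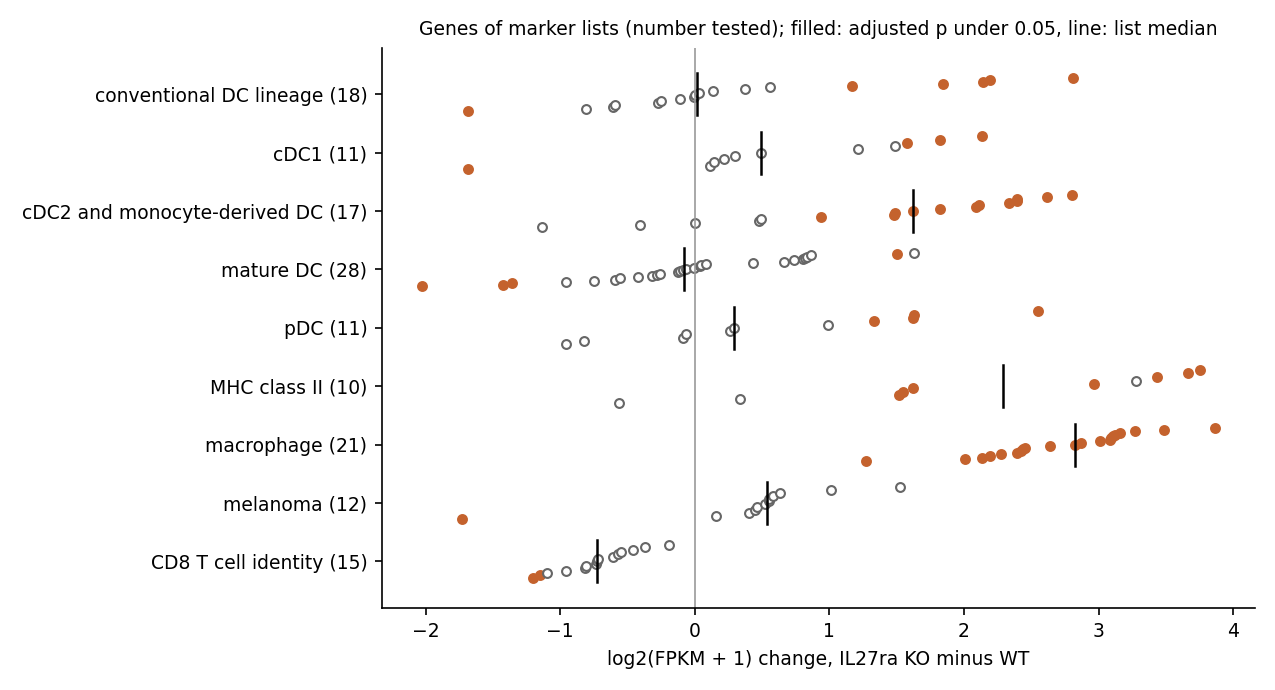
log2(FPKM + 1) change, IL27ra KO minus WT (horizontal axis), of each tested gene in 9 marker lists, with the number tested in parentheses; filled points had an adjusted p under 0.05 and vertical lines are list medians. The list of type 2 and monocyte-derived dendritic cells (median 1.62) lies to the right of those of type 1 (0.49) and mature (-0.078) cells. The lists of macrophage (2.83) and MHC class II (2.29) genes lie farther to the right.

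The members followed the macrophage genes to different degrees from library to library. Cd209a was lowest in WT replicates 1 and 3 (0.19 and 0 FPKM), where the mean log2 level of the macrophage list was 1.38 and 1.44, and highest among WT in replicate 2 (3.56 FPKM), where that level was 3.17. In IL27ra KO it was highest in replicates 1, 2 and 3 (macrophage level 5.35, 4.97 and 5.51) and lowest in replicate 4 (3.82). Wdfy4 also had its lowest IL27ra KO value in replicate 4, at 0.54 FPKM, and Ccl22 was at 0 there. Itgax did not have this order. Within WT its lowest value, 0.55 FPKM, was in replicate 2, the library with the most macrophage RNA of that group, and within IL27ra KO its highest was in replicate 4, the library with the least. In that library Itgax was 2.21 times the mean of the other 3 IL27ra KO libraries and Cd209a 0.174 times, and the CD8 T cell identity list stood at 6.27, against 4.97 to 5.42 in the other 3 and 6.00 to 6.62 in WT. Melanoma genes of the tumour cells had levels of 4.19 to 5.98 in WT, 5.74 to 5.94 in IL27ra KO replicates 1 to 3 and 4.78 in replicate 4. No correlation over the 9 libraries is given, and the part of macrophage RNA in the results for Itgax, Cd209a, Batf3 and Wdfy4 was not tested apart from genotype. The covariate fits given for Itgax and Cd209a cannot separate the macrophage level from genotype.

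**Figure D5:**
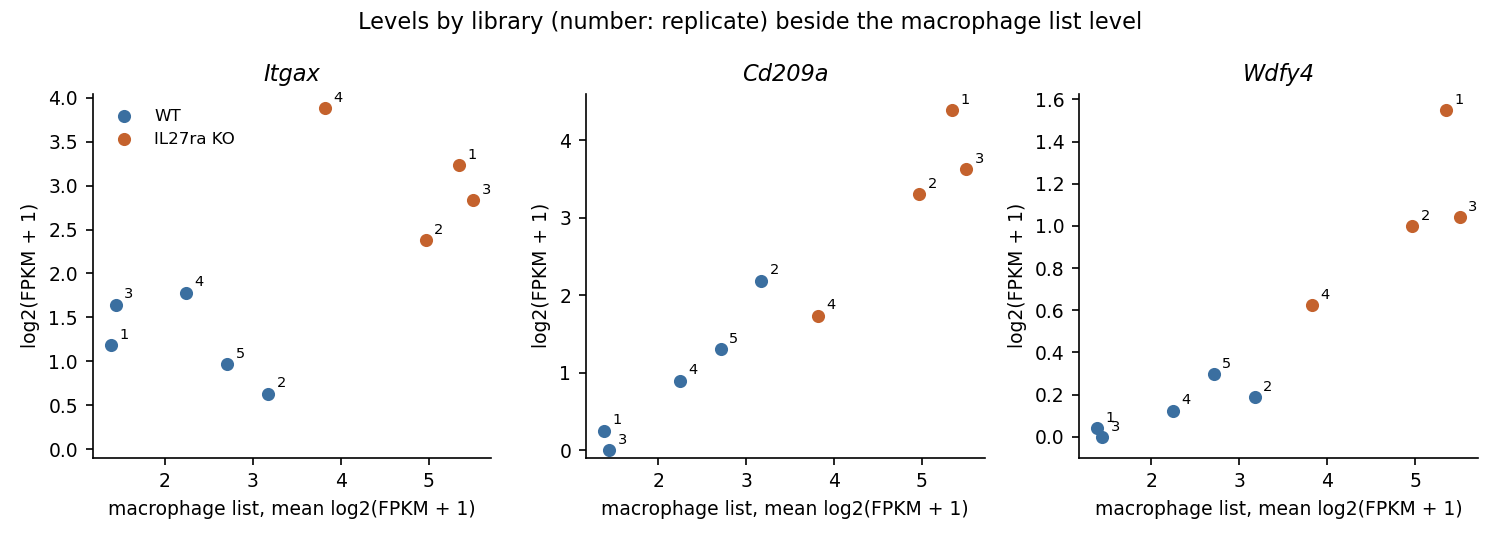
log2(FPKM + 1) of Itgax, Cd209a and Wdfy4 (vertical axis) in each library beside the mean log2 level of the macrophage list (horizontal axis), labelled by replicate number. Cd209a and Wdfy4 are low where the list is low, whereas Itgax is highest in IL27ra KO replicate 4 (list level 3.82) and lowest in WT replicate 2 (3.17).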

How the data were processed

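Per the labels, the authors deposited FPKM per gene symbol, estimated by RSEM and scaled by TMM over the 9 libraries. The submitters' processing notes name TopHat, RSEM, DESeq and mm9, with no versions, roles or order. RSEM divides fragments among similar genes, and TMM rests on genes of stable level, so a change in cell makeup shifts all values of a library. Smart-seq reads carry no molecular identifiers, so PCR copies add to the spread.

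From these values log2(FPKM + 1) was computed. Genes averaging 1 FPKM or more were fitted with limma 3.58.1 in R 4.3.3 (empirical Bayes with a trend), as IL27ra KO minus WT, with Benjamini-Hochberg adjustment over 10374 genes and a threshold of 0.05. For members below that mean, group labels were exchanged in all 126 ways (exact permutation test, two-sided). The fit was tested on simulated data. Profile likeness is the root mean square difference of log2 values after each gene's mean was subtracted.

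The members, the 12 other lists and the alternatives were chosen with earlier results of these data known. Named genes are the members, up to 4 of each list by smallest p and 2 by level, the 2 nearest profiles of each tested member, Il27ra and relatives of Cd209a and Itgax; Cd163, Cd5l, Ms4a1, Siglech and Cd4 were added after their values were seen. Not all genes that this rule names are reported here. The table has 0 columns of other samples.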

Additional observations from a re-analysis of the deposited data

Results flagged for a closer look

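In 49 sets of 4 or 5 libraries (the members, Il27ra, Cd209c, Cd209d and the list levels, each in WT and IL27ra KO), 5 had 1 library whose gap to the next was large for the range of its set on the log2(FPKM + 1) scale. Chance gives about 1 such set in 20, or 2.5 of 49. Fscn1 had 2.4 FPKM in WT replicate 4, against at most 0.43 FPKM in the other WT libraries. Batf3 had 0.34 FPKM in WT replicate 5 and was at 0 in the others, and Clec9a had 0.18 FPKM in IL27ra KO replicate 1 and was at 0 in the others, so that about 1 and 2 fragments set these 2 apart. The level of the NK cell list was 3.22 in WT replicate 2, the library whose Il27ra lay in the IL27ra KO range. The level of the melanoma list was 4.78 in IL27ra KO replicate 4, the library with the highest Itgax and the lowest Cd209a of its group.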

How the results depend on the processing

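The count of 440 changed genes was 219 with a filter at 5 FPKM, 974 with library quality weights, 273 with the replicate block, 7 with the macrophage level as a covariate (1346 at an unadjusted p under 0.05) and 1418 on scaling to CD8 T cell identity genes, and from 226 to 632 when 1 library was left out. The higher and lower calls, 325 and 115, were 291 and 167 with quantile normalization, 525 and 65 at the same total and 1366 and 52 on the CD8 T cell scaling. The last 2 moved the median change of all genes from 0.023 to 0.29 and 0.63. That scaling, and a total without Rn45s, the ribosomal RNA gene that held 23.9% to 53.8% of a library's summed FPKM, were chosen after the data had been seen.

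The 2 members called became 1 with the filter at 5 FPKM, which leaves Itgax untested, 0 with the macrophage covariate (limma; 1 at an unadjusted p under 0.05), and between 1 and 3 when 1 library was left out. With no filter, Itgax, Batf3 and Wdfy4 were the 3 called, in a fit that called 1.30% of 18446 genes as higher. Itgax and Cd209a passed under all 3 pseudocounts, all 5 other scalings, and the robust, weighted, melanoma covariate and replicate block fits, and Fscn1 also passed on the CD8 T cell scaling (log2 difference 1.09, adjusted p = 0.0409). Directions turned for Cd209a (-0.95) and Il27ra (0.55) with the macrophage covariate, and for Zbtb46 (0.17) and Xcr1 (0.11) on the CD8 T cell scaling. The macrophage level did not overlap between the groups, so fits with that covariate cannot separate it from genotype. Leaving out 1 library gave -0.46 to 0.0024 for Zbtb46, -0.38 to 0.030 for Xcr1 and -0.050 to 0.032 for Clec9a, none of which passed in any fit. The cause of these shifts was not tested.

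Replicate numbers did not pair the libraries: deviations of same-numbered libraries from their group means correlated at 0.003, -0.008, -0.066 and -0.147 across genes. The block leaves WT replicate 5 out of the comparison, and it changed no call of a member.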
